A study of Camelus dromedarius with 10 samples.

Results

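The genes described are 36 nuclear receptors, among them the receptors for corticosteroids, oestrogens and progesterone, the retinoid receptors and the lipid-sensing receptors, measured in the supraoptic nucleus (SON) of the dromedary camel. They were taken from the count table as the rows whose Ensembl gene ID is paired with one of these symbols in the study's supplementary tables, by the camel name or otherwise by the name of the human ortholog. This gave 37 of the 22444 gene IDs, because *ESR1* is paired with 2 IDs, and 4316 IDs could be paired with any symbol in this way. Nuclear receptor genes without a row chosen by this rule, such as those for androgens and thyroid hormone, were not analysed here.

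Nuclear receptors are transcription factors that bind small lipophilic ligands, such as steroid hormones, retinoic acid, oxysterols and fatty acids, and then recruit co-activators or co-repressors to the genes they sit on. Steroid receptors are held by HSP90 chaperones until the hormone arrives, whereas many of the others sit on DNA as heterodimers with a retinoid X receptor (RXR). In the hypothalamus the glucocorticoid receptor takes part in the feedback of the adrenal hormones on the brain, and oestrogen receptor beta is known from magnocellular neurones of rodents.

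RNA-seq libraries were made from the rostral SON of male camels aged 4 to 5 years and kept outdoors on a ranch. The SON was taken from 1 side of the brain and holds glial, vascular and other cells besides the magnocellular neurones, which make vasopressin and oxytocin. The control group of 5 camels drank freely (libraries CON2, CON3, CON4, CON5 and CON13), and the WD group of 5 camels received food but no water for 20 days (libraries WD6, WD7, WD8, WD9 and WD15). The comparison of these groups asks which transcripts of the nucleus differ after long water deprivation.

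Between 1665098 and 8126641 read pairs were counted on genes per library, and 5 gene IDs without a symbol took between 27.7% and 76.1% of them. The remaining counts were fewest in CON13, with 397495, and in WD6, with 1106575, so that a single read pair is worth 1.20 CPM in CON13, 0.475 CPM in WD6 and at most 0.237 CPM in the other libraries. CPM are counts scaled to a common library size after TMM normalization. Of the markers of magnocellular neurones, *SIM1*, *OTP*, *ARNT2* and *PDYN* were paired and counted in every library, with a summed level of 501 to 699 CPM in control and 830 to 1253 CPM in WD libraries, and *PDYN*, which encodes an opioid peptide precursor, was called higher in WD (log2 fold change 1.93, adjusted p = 0.000302 in edgeR's quasi-likelihood fit). The other 3 were not called and had log2 fold changes of -0.04 (*SIM1*), -0.58 (*OTP*) and -0.03 (*ARNT2*), so the higher sum in WD rests on *PDYN*. *VIP*, a marker of the neighbouring suprachiasmatic nucleus, did not exceed 2.39 CPM in any library. Vasopressin and oxytocin themselves were not paired with an ID here.

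Nuclear receptor transcripts were present at low to moderate levels, and 31 of the 37 IDs had at least 1 count in all 10 libraries. The mean level in control camels was above 10 CPM for 15 IDs, between 2 and 10 CPM for 16 and below 2 CPM for 6. The receptors with the most counts in control libraries were *NR2C2* (the orphan receptor TR4) at 35.1 ± 2.42 CPM (SD, n = 5), *NR1H2* (the liver X receptor LXR beta) at 34.2 ± 3.44 CPM, *NR2F1* (COUP-TF1) at 32.1 ± 5.83 CPM, *NR1D2* (REV-ERB beta) at 29.9 ± 5.64 CPM and *NR3C1* (the glucocorticoid receptor) at 29.0 ± 3.77 CPM. The control libraries of neighbours in this order overlapped, while *NR2C2* and *NR3C1* did not overlap, with 32.2 CPM as the lowest value of the first and 31.7 CPM as the highest of the second. CPM are not divided by transcript length, so this is an order of read pairs and not of transcripts. At the other end stood *NR1I2* (the pregnane X receptor) at 0.763 ± 0.667 CPM and *NR2E3* (a receptor of photoreceptor cells) at 0.877 ± 1.53 CPM. For *NR2E3*, 3 read pairs in CON13 made up 81.8% of the summed control level. Without CON13 the order of these 2 turned, with means of 0.954 CPM for *NR1I2* and 0.200 CPM for *NR2E3*. The spread (SD) between control libraries was 6.88% of the mean for *NR2C2*, 18.2% for *NR2F1* and 175% for *NR2E3*. Without CON13, the shallowest, it was 7.16%, 8.51% and 138%.

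**Figure D1:**
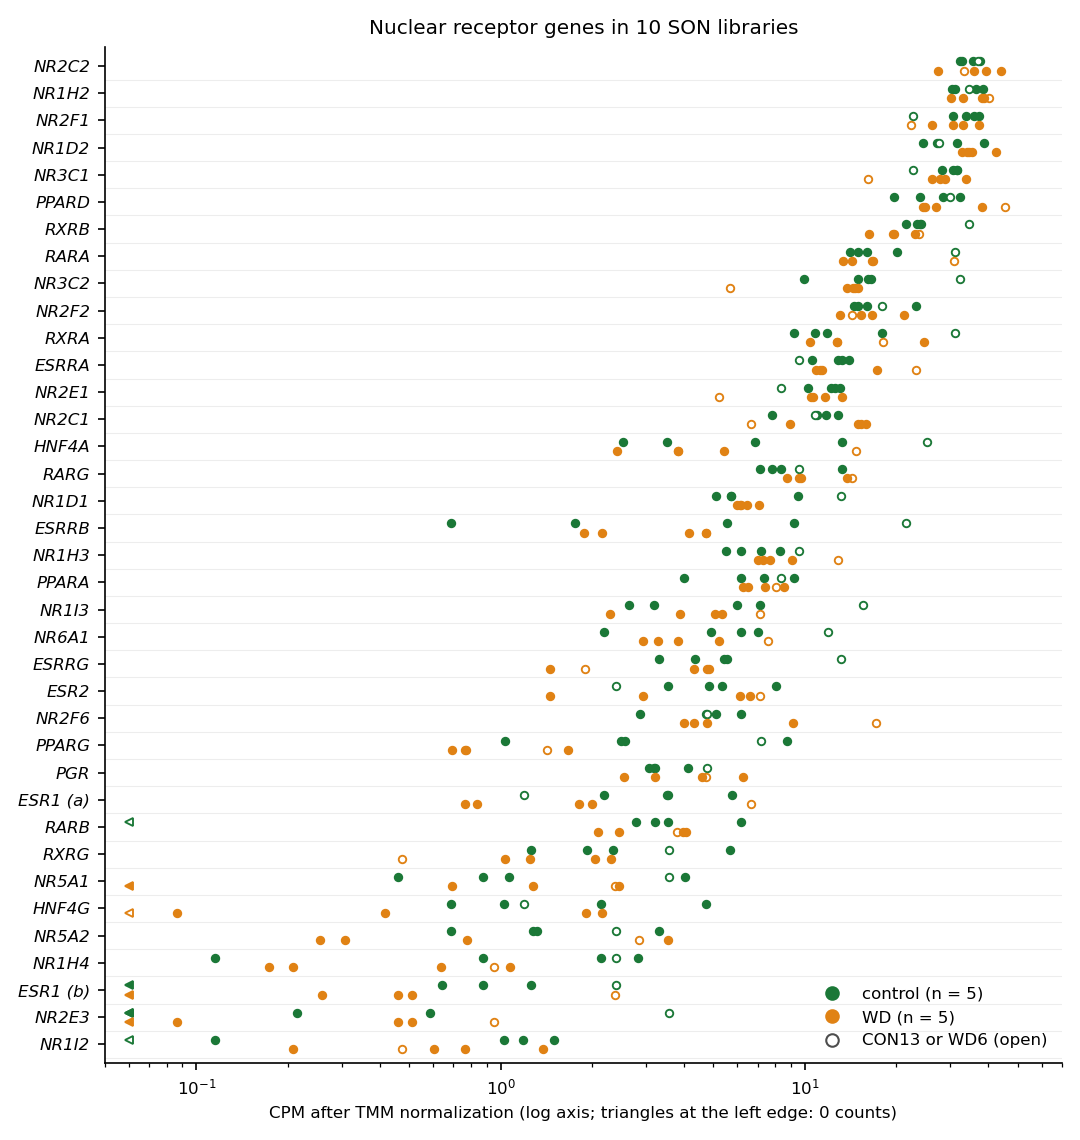
Level of the 37 nuclear receptor gene IDs in each library, in CPM on a log axis, with control libraries in green and WD libraries in orange, in the order of the control mean. Open points are the 2 shallowest libraries, CON13 and WD6, triangles at the left edge are libraries with 0 counts, and *ESR1* (a) and *ESR1* (b) are the IDs ENSCDRG00005020770 and ENSCDRG00005020779. In every row the control and WD points overlap, and the points spread out below about 10 CPM.

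No nuclear receptor was called different between control and WD camels. edgeR's filterByExpr kept 29 of the 37 IDs for testing, and of these 0 had an adjusted p of at most 0.05 by the quasi-likelihood test, against 0.499% of all 14432 genes tested. At an unadjusted p under 0.05 the count was also 0, against 9.31% of all genes tested, and the smallest adjusted p was 0.671, for *RXRG*. DESeq2's Wald test called 0 of the 33 IDs to which it gave an adjusted p, against 1.27% of all genes, and had 1 ID of 37, *PPARG*, at an unadjusted p under 0.05, against 8.83% of all genes. The control and WD libraries overlapped for all 37 IDs, whereas 1.86% of all gene IDs with a count did not overlap. In a bulk sample, less RNA of a gene per cell and fewer cells that make it cannot be told apart, and this holds for each value that follows.

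The log2 fold change of WD over control was above 0 for 12 of the 29 tested IDs and below 0 for 17, while 51.9% of all tested genes were above 0. The median was -0.09 for the receptors and 0.02 for all tested genes, and the median size without its sign was 0.24 and 0.22. The signs depend in part on the scaling. With library totals only, without TMM, the median of all genes lay 0.16 above 0, the receptor median was 0.05 and 18 receptors were above 0. The 95% interval lay within a 2-fold change in either direction for 19 of the 29 receptors (65.5%, against 66.2% of all tested genes) and within a 1.5-fold change for 6. Total counts per receptor ranged from 113 to 2069 with a median of 565, against 859 for all tested genes, and the 8 IDs removed by the filter had totals of 18 to 111.

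**Figure D2:**
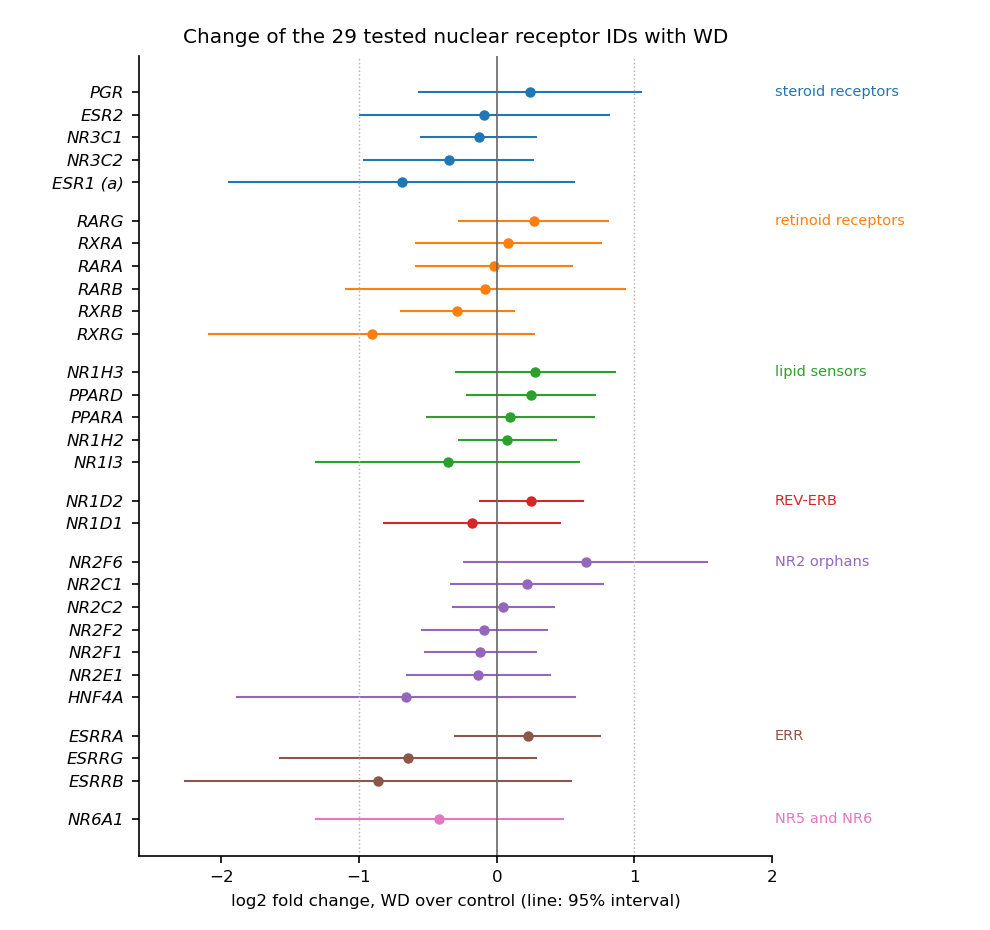
Log2 fold change of WD over control for the 29 tested nuclear receptor IDs, grouped by role, with lines for the 95% interval from edgeR's quasi-likelihood fit, solid at 0 and dotted at a 2-fold change. All 29 intervals include 0, and those of *RXRG*, *ESRRB*, *HNF4A* and *ESR1* (a) are the widest downwards.

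The steroid receptors were represented by 6 IDs, of which 5 were tested, and 0 were called. *NR3C1*, the glucocorticoid receptor, was at 31.6, 30.8, 31.7, 28.3 and 22.7 CPM in CON2, CON3, CON4, CON5 and CON13, and at 16.1, 29.0, 27.8, 26.1 and 34.0 CPM in WD6, WD7, WD8, WD9 and WD15. The lowest library of each group was its shallowest, CON13 and WD6, and apart from these the values of the groups lay among each other. The estimated log2 fold change was -0.13 with an SE of 0.199 (adjusted p = 0.900 in edgeR's quasi-likelihood fit), with a 95% interval from 0.683 to 1.22 times the control level. Thus a fall or a rise of *NR3C1* as large as 1.5-fold lay outside the interval. Without CON13 and WD6 the log2 fold change was -0.09.

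*NR3C2* encodes the mineralocorticoid receptor, which in the brain binds both aldosterone and corticosteroids of the glucocorticoid type. Its levels in the order given above were 14.9, 16.1, 16.5, 9.95 and 32.3 CPM in control and 5.69, 14.9, 14.6, 13.7 and 14.4 CPM in WD libraries. CON13 was far above the other control libraries, WD6, with 12 read pairs, was far below the other WD libraries, and the remaining values shared 1 range. A log2 fold change of -0.35 was estimated with an SE of 0.291 (adjusted p = 0.780 in edgeR's quasi-likelihood fit), with an interval from 0.514 to 1.20 times the control level. In fits that dropped 1 library it was nearest to 0 without CON13 (-0.15) and WD6 (-0.19) and farthest from 0 without CON5 (-0.52). It was -0.01 (SE 0.199) without both CON13 and WD6, and -0.30 with depth group as a covariate, which sets the 5 shallowest libraries against the other 5.

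The receptors for sex steroids were low. *PGR*, the progesterone receptor, was at 3.08 to 4.78 CPM in control and 2.55 to 6.25 CPM in WD libraries (log2 fold change 0.24, SE 0.384). *ESR2*, oestrogen receptor beta, was at 2.39 to 8.04 CPM in control and 1.46 to 7.12 CPM in WD libraries (log2 fold change -0.09, SE 0.429). For *ESR1*, oestrogen receptor alpha, the ID ENSCDRG00005020770 held 144 of the 181 read pairs of both IDs and had a log2 fold change of -0.69 (SE 0.594), with CON13 as the lowest control library at 1.20 CPM and WD6 as the highest WD library at 6.64 CPM. With both *ESR1* IDs summed, a sum given by library after its values were seen, the levels were 6.40, 3.55, 3.44, 4.39 and 3.59 CPM in control and 9.02, 1.28, 2.46, 2.07 and 0.833 CPM in WD libraries. All WD libraries except WD6 thus lay below all control libraries, but the summed log2 fold change of -0.64 did not pass the test (SE 0.559, adjusted p = 0.792 in edgeR's quasi-likelihood fit). Without CON13 and WD6 this more counted ID had a log2 fold change of -1.43 (SE 0.494, adjusted p = 0.256 by the same test).

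All 6 retinoid receptors were tested and 0 were called. *RXRB*, one of the RXRs that partner other nuclear receptors, had the highest level of the group, at 23.9, 24.1, 21.5, 23.3 and 34.7 CPM in control and 23.7, 23.1, 19.5, 16.2 and 19.6 CPM in WD libraries. CON13 stood above all other libraries, and the other 4 control libraries lay at 21.5 to 24.1 CPM, of which CON4 and CON5 were within the WD range. For WD over control this gave a log2 fold change of -0.29 with an SE of 0.194 (adjusted p = 0.702 in edgeR's quasi-likelihood fit), and it ranged from -0.36 to -0.20 over the 10 fits that dropped 1 library each.

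*RXRG* had the smallest p of all receptors in edgeR's test and was at 1.92, 5.68, 1.26, 2.34 and 3.59 CPM in control and 0.475, 2.04, 2.30, 1.04 and 1.25 CPM in WD libraries. CON3 was the highest, with 24 read pairs, and WD6 the lowest, with 1 read pair, and 2 of the 5 control libraries lay within the range of the WD libraries. Its log2 fold change was -0.91 with an SE of 0.561 (adjusted p = 0.671), an interval from 0.235 to 1.21 times the control level that covers both a 4-fold fall and no difference. Without CON3 the estimate was -0.47, and 7 of the 10 fits that dropped 1 library kept this gene past the filter. *RXRA*, at 16.2 ± 8.97 CPM in control and 15.7 ± 5.71 CPM in WD libraries (SD, n = 5 each), had a log2 fold change of 0.08 (SE 0.319).

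The retinoic acid receptors *RARA*, *RARB* and *RARG* had log2 fold changes of -0.02, -0.08 and 0.27, with SEs of 0.268, 0.480 and 0.257. *RARA* was high in the shallowest library of each group, at 31.1 CPM in CON13 and 30.8 CPM in WD6, against 13.4 to 20.1 CPM in the other 8 libraries. *RARB* had no read pair in CON13, where 0 counts allow a level of up to 3.59 CPM, and was between 2.08 and 6.19 CPM in the other 9 libraries. Such limits cover counting error only.

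Of the 8 lipid-sensing receptors, 5 were tested and 0 were called. *NR1H2*, the LXR form that most tissues express and that senses oxysterols, was at 38.4, 36.4, 30.4, 31.0 and 34.7 CPM in control and 40.3, 33.0, 38.9, 30.2 and 38.1 CPM in WD libraries. The groups covered nearly the same range. Its log2 fold change of 0.08 was the most precisely measured of the receptors by its SE of 0.168 (adjusted p = 0.939 in edgeR's quasi-likelihood fit), and the interval of 0.825 to 1.35 times the control level did not reach a 1.5-fold change in either direction. *NR1H3*, LXR alpha, which is known from macrophages and liver, was at 5.51 to 9.57 CPM in control and 7.01 to 12.8 CPM in WD libraries (log2 fold change 0.28, SE 0.273). *PPARD* and *PPARA*, which sense fatty acids, had log2 fold changes of 0.25 (SE 0.220) and 0.10 (SE 0.288). For *PPARD* the estimate came with 2 high WD libraries, WD6 at 45.6 CPM and WD15 at 38.1 CPM, whereas the other 3 WD libraries were at 24.4 to 26.9 CPM, within the control range of 19.6 to 32.4 CPM. *NR1I3*, the xenobiotic receptor CAR, had a log2 fold change of -0.36 (SE 0.453).

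*PPARG*, the PPAR of adipocytes and macrophages, was chosen for description after its values were seen. It was at 2.56, 8.75, 1.03, 2.49 and 7.17 CPM in control libraries, from 12, 37, 9, 17 and 6 read pairs, and at 1.42, 0.765, 0.768, 0.691 and 1.67 CPM in WD libraries, from 3, 6, 5, 8 and 8 read pairs. All WD libraries lay below 4 of the 5 control libraries, and CON4 was within the WD range. With 111 read pairs in all it did not pass the filter on low counts. Without that filter edgeR's quasi-likelihood test gave a log2 fold change of -1.96 with an SE of 0.645 (adjusted p = 0.343), and DESeq2's Wald test gave -2.03 with an SE of 0.647 (adjusted p = 0.0942). Neither passed the threshold. *NR1H4* (the bile acid receptor FXR) and *NR1I2* were not tested, with 48 and 44 read pairs in all.

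Markers of other cell types are given beside the lipid-sensing receptors. Counts of markers called stand against 0.499% of all genes tested that were called in either direction. The summed level of 10 paired markers of microglia and macrophages, of 12 listed, was 386 to 603 CPM in control and 508 to 1905 CPM in WD libraries. The highest sum was that of WD15, against a WD median of 927 CPM. Log2 fold changes were above 0 for all 10, and 1 of them, *C1QA*, was called higher in WD. The ranges of the sum overlapped. Of these 10, only 4 are paired in the complete supplementary sheets, and the other 6 come from the table whose copy here keeps the genes of smallest p, so the sum and the count are descriptions of a list chosen in part by p. The sum of 5 paired markers of mural cells, fibroblasts and meninges, of 11 listed, was 109 to 147 CPM in control and 70.8 to 109 CPM in WD libraries. The highest WD sum, 108.7 CPM, just passed the lowest control sum, 108.6 CPM. *COL1A1* was called lower in WD (log2 fold change -1.04), and *COL3A1* was not called (-0.86). Only 1 of the 5, *PDGFRB*, had a log2 fold change above 0 (0.18). The 6 paired endothelial markers, of 10 listed, summed to 114 to 188 CPM in control and 141 to 270 CPM in WD libraries, with 5 log2 fold changes above 0 and 0 called. Of the neuronal markers only *MYT1L* was paired, of 5 listed. Its 2 IDs summed to 22.7 to 35.9 CPM in control and 18.3 to 20.9 CPM in WD libraries, without overlap. The groups did not overlap for the more counted ID, as for 2.62% of all tested genes, but they overlapped for the other ID. Neither ID was called. The sum of 5 oligodendrocyte lineage markers, of 8 listed, was 128 to 288 CPM in control and 118 to 215 CPM in WD libraries, with 0 log2 fold changes above 0 and 0 called. Of the astrocyte markers only *ALDH1L1* was paired, through the table cut by p, at 17.6 to 27.0 CPM in control and 25.5 to 42.2 CPM in WD libraries, and it was not called. The part of any of these in the values of *NR1H3*, *PPARG* or the other receptors was not tested.

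**Figure D3:**
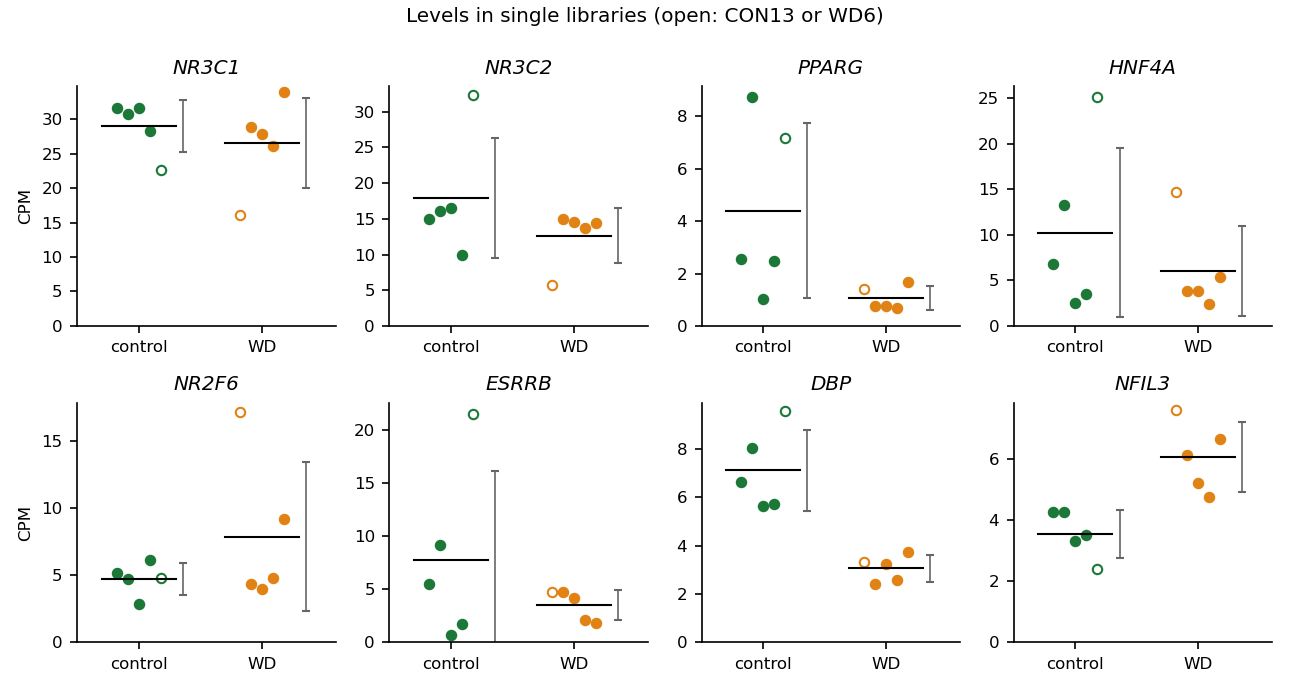
Level in each library in CPM, from 0, for 6 receptors and 2 clock genes, with control libraries in green, WD libraries in orange and CON13 and WD6 as open points. The line is the mean and the bar the SD (n = 5), which for *ESRRB* in control reaches below the axis. The groups overlap for all 6 receptors, and for *DBP* and *NFIL3* they do not.

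The REV-ERB receptors *NR1D1* and *NR1D2* bind haem and repress genes of the circadian clock. *NR1D2* was at 31.6, 24.4, 38.9, 27.2 and 27.5 CPM in control and 34.2, 34.6, 35.3, 42.3 and 32.9 CPM in WD libraries. All WD libraries lay above 4 of the 5 control libraries, while CON4 was within the WD range. *NR1D2* had a log2 fold change of 0.25 with an SE of 0.179 (adjusted p = 0.724 in edgeR's quasi-likelihood fit), with an interval from 0.917 to 1.55 times the control level. The estimate was 0.16 without CON3 and 0.36 without CON4 (adjusted p = 0.493 in the latter edgeR fit). *NR1D1*, at 7.84 ± 3.44 CPM in control and 6.37 ± 0.427 CPM in WD libraries (SD, n = 5 each), had a log2 fold change of -0.18 (SE 0.303), and the estimates of these paralogs thus differed in sign without either passing the test.

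Of 9 NR2 orphan receptors, 7 were tested and 0 were called. *NR2C2*, which takes part in the control of lipid and germ cell genes, was at 32.2, 37.6, 32.9, 35.6 and 37.1 CPM in control and 33.2, 35.8, 27.3, 39.5 and 44.2 CPM in WD libraries. The WD libraries lay on both sides of the control libraries. *NR2C2* had a log2 fold change of 0.05 with an SE of 0.174 (adjusted p = 0.964 in edgeR's quasi-likelihood fit). *NR2F6*, a COUP-TF relative, had the highest positive estimate among the receptors and was at 5.12, 4.73, 2.87, 6.15 and 4.78 CPM in control and 17.1, 4.34, 3.99, 4.75 and 9.17 CPM in WD libraries. WD6 and WD15 were above all control libraries and the other 3 WD libraries within their range. Its log2 fold change of 0.65 (SE 0.419, adjusted p = 0.687) was 0.22 without WD6 and 0.20 without CON13 and WD6.

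The developmental receptors *NR2F1* and *NR2F2* (COUP-TF1 and COUP-TF2), *NR2E1* (TLX, a receptor of neural stem cells) and *NR2C1* (TR2) had log2 fold changes of -0.12, -0.09, -0.13 and 0.22, with SEs of 0.190, 0.215, 0.247 and 0.261. *HNF4A*, a receptor best known from liver and gut, was picked out after its values were seen, since single libraries decided its level. It was at 6.83, 13.2, 2.52, 3.51 and 25.1 CPM in control and 14.7, 3.83, 3.84, 2.42 and 5.42 CPM in WD libraries. The shallowest library was the highest of each group, and CON13 alone made up 49.0% of the summed control level. The log2 fold change of -0.66 (SE 0.582) moved between -1.16 and -0.23 in fits that dropped 1 library each. *HNF4G* and *NR2E3* were not tested.

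The oestrogen-related receptors (ERR) have no known natural steroid ligand and act with the co-activator PGC-1 on genes of mitochondrial metabolism. All 3 were tested and 0 were called. *ESRRA*, the most counted of them, was at 13.2, 14, 10.6, 12.9 and 9.57 CPM in control and 23.3, 11.4, 10.9, 11.2 and 17.3 CPM in WD libraries. WD6 and WD15 were above all control libraries, and the other 3 WD libraries lay within the control range. The log2 fold change was 0.23 with an SE of 0.250 (adjusted p = 0.847 in edgeR's quasi-likelihood fit), and it was 0.03 without WD6 and -0.02 without CON13 and WD6.

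*ESRRB* was at 5.55, 9.23, 0.688, 1.76 and 21.5 CPM in control and 4.75, 4.72, 4.15, 2.16 and 1.88 CPM in WD libraries. The WD libraries were close together within a control range that spread from 6 read pairs in CON4 to the highest level, in CON13. The log2 fold change was -0.86 with an SE of 0.664 (adjusted p = 0.750 in edgeR's quasi-likelihood fit), and -0.07 with depth group as a covariate. Without CON13 alone it was -0.27. *ESRRG* was at 5.55, 3.31, 4.36, 5.42 and 13.2 CPM in control and 1.90, 4.34, 4.76, 4.84 and 1.46 CPM in WD libraries. CON13 was high, WD6 and WD15 were low, and the remaining libraries shared a range of 3.31 to 5.55 CPM. Its log2 fold change of -0.64 (SE 0.440, adjusted p = 0.706) was -0.37 without CON13 and -0.27 without CON13 and WD6.

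Of the NR5 and NR6 receptors, *NR6A1*, the germ cell nuclear factor, was tested and not called. It was at 4.91, 6.15, 2.18, 7.03 and 12 CPM in control and 7.59, 2.93, 3.84, 3.28 and 5.21 CPM in WD libraries. The groups overlapped over most of their range, and the log2 fold change was -0.42 with an SE of 0.427 (adjusted p = 0.829 in edgeR's quasi-likelihood fit). It was -0.21 without CON13 and -0.69 without CON4. *NR5A1* (SF-1), which marks neurones of the ventromedial hypothalamus and steroid-making tissues, was counted 74 times over 9 libraries, at 0.459 to 4.02 CPM in control and up to 2.46 CPM in WD libraries. *NR5A2* (LRH-1) had 73 read pairs, and neither was tested.

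The shallowest libraries stood at the ends of some of these ranges, and the same libraries were often the highest over all tested genes. CON13 was the highest control library for 14 of the 37 IDs and the lowest for 8, and it was the highest for 30.2% of all tested genes. WD6 was the highest WD library for 16 of the 37 and the lowest for 7, against 32.6% of all tested genes at the highest. The 37 include the 8 IDs that did not pass the filter, whereas the shares cover tested genes only. No share over all genes was computed for the lowest library. Without CON13 and WD6, 30 receptor IDs were tested and 0 were called, against 0.59% of all 14909 genes tested in that fit. In fits that dropped 1 library each, the estimates of 22 of the 29 tested receptors kept their sign.

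**Figure D4:**
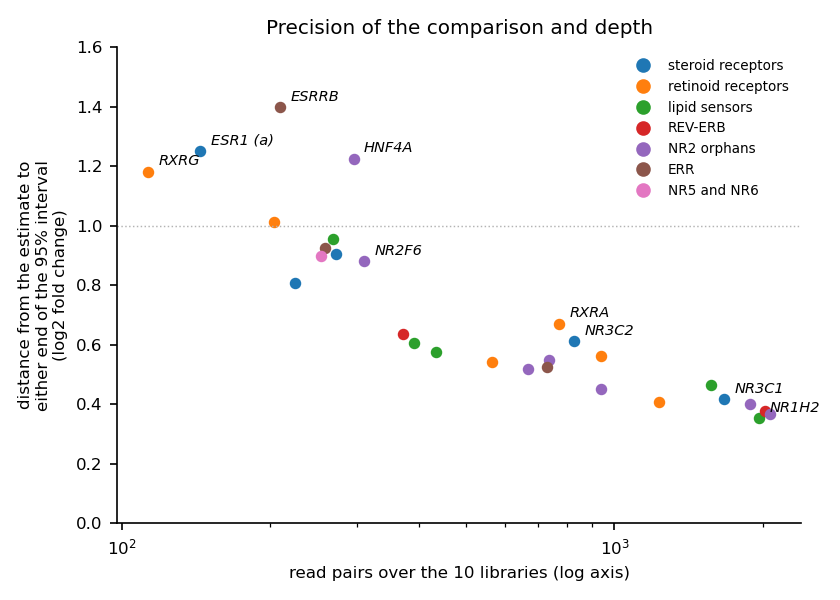
Distance from the log2 fold change to either end of its 95% interval, against the read pairs of the gene over the 10 libraries on a log axis, for the 29 tested receptor IDs coloured by role. The dotted line is a 2-fold change, and the distance is 1.18 for *RXRG*, with 113 read pairs, and 0.37 for *NR2C2*, with 2069.

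Genes that work with the receptors were compared in the same fit. The lists of co-regulators, chaperones, ligand-converting enzymes and target genes held 72 symbols, the receptor *RARB* among them. With this receptor left out, 30 were paired in the complete supplementary sheets and 25 were tested. edgeR's quasi-likelihood test called 0 of them, against 0.499% of all genes tested, with 2 at an unadjusted p under 0.05, against 9.31%. DESeq2's Wald test called 1 of 30, against 1.27% of all genes. Their log2 fold changes were above 0 for 12 and below 0 for 13, with a median of -0.02.

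All 8 tested co-activators and co-repressors had log2 fold changes between -0.27 and 0.08. *NCOA2*, a co-activator of steroid receptors, had the smallest p among them, with 80.9 to 112 CPM in control and 81.1 to 87.9 CPM in WD libraries (log2 fold change -0.22, SE 0.150). The chaperone *HSP90AA1* was at 597 to 1196 CPM in control and 809 to 1276 CPM in WD libraries (log2 fold change 0.28, SE 0.210). Of 9 paired enzymes, 5 were tested. *CYP27A1*, which makes 27-hydroxycholesterol, a ligand of LXR, had the smallest p of this list, with 21.5 to 32.7 CPM in control and 25.6 to 40.4 CPM in WD libraries (log2 fold change 0.32, SE 0.194). *HSD11B2*, which inactivates cortisol and so gives aldosterone access to the mineralocorticoid receptor in kidney, had 41 read pairs in all and was not tested.

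Among target genes, *SGK1*, a kinase induced by both corticosteroid receptors, was at 86.2, 27.4, 53.0, 58.7 and 23.9 CPM in control and 55.5, 44.6, 68.4, 51.2 and 97.1 CPM in WD libraries. The groups overlapped, and the log2 fold change was 0.30 (SE 0.292, adjusted p = 0.816 in edgeR's quasi-likelihood fit). *SREBF1*, a lipogenic factor driven by LXR, had a log2 fold change of -0.23 (SE 0.233), and *PDK4*, a kinase of fuel choice driven by PPARs, one of 0.67 (SE 0.343, adjusted p = 0.584 by the same test). *CYP26B1*, which breaks down retinoic acid and is induced by it, was at 1.03 to 4.78 CPM in control and 1.15 to 4.27 CPM in WD libraries (log2 fold change -0.05, SE 0.526).

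*FKBP5*, *PER1* and *ABCG1* are paired only in a supplementary table whose copy here keeps the genes of smallest p, so they are described and not counted. *FKBP5*, an HSP90 co-chaperone induced by glucocorticoids, was at 21.1, 32.9, 16.3, 25.6 and 20.3 CPM in control and 55.5, 19.1, 43.5, 44.8 and 43.1 CPM in WD libraries. All WD libraries except WD7 lay above all control libraries, and the log2 fold change of 0.80 (SE 0.260) did not pass the test (adjusted p = 0.265 in edgeR's quasi-likelihood fit, and 0.0712 as the lowest under any alternative). *PER1*, a clock gene that also answers glucocorticoids, had a log2 fold change of 0.49 (SE 0.240, adjusted p = 0.564). The 3 glucocorticoid targets that were counted, *SGK1* among them, had log2 fold changes from -0.16 to 0.30. Of these, 2 were above 0 and 1 was below, with a median of 0.07. *ABCG1*, a cholesterol exporter driven by LXR, was at 15.4 to 22.7 CPM in control and 10.6 to 14.4 CPM in WD libraries, without overlap (log2 fold change -0.67, SE 0.200, adjusted p = 0.219).

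Over all the partner and target lists, 2 of the 25 genes tested had groups that did not overlap, against 2.62% of all tested genes. Both were among the 4 clock genes listed with the REV-ERB receptors. *DBP*, a clock output factor, was at 6.62, 8.04, 5.62, 5.71 and 9.57 CPM in control and 3.32, 2.42, 3.23, 2.59 and 3.75 CPM in WD libraries. Every WD library was below every control library. The log2 fold change was -1.18 with an SE of 0.330 (adjusted p = 0.184 in edgeR's quasi-likelihood fit), and DESeq2's Wald test called it lower in WD with -1.17 (adjusted p = 0.0410). *NFIL3*, a repressor known to be repressed by REV-ERB and to act on the sites of *DBP*, was named after its values were seen. It was at 4.27, 4.26, 3.33, 3.51 and 2.39 CPM in control and 7.59, 6.12, 5.22, 4.75 and 6.67 CPM in WD libraries. Every WD library was above every control library, but the log2 fold change of 0.70 (SE 0.320) did not pass either test (adjusted p = 0.521 in edgeR and 0.422 in DESeq2). *ARNTL*, the BMAL1 gene that REV-ERB represses, and *CLOCK*, its partner, had log2 fold changes of 0.41 (SE 0.259) and -0.02 (SE 0.266), with groups that overlapped. The study's methods do not give the time of day at which the tissue was taken. Its part in the values of the clock genes and the REV-ERB receptors was not tested.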

How the data were processed

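Rostral SON RNA from 5 control and 5 WD camels was sequenced after ribosomal RNA depletion. Per the study's methods, the authors used BBDuk for merging and trimming and STAR for alignment to Camdro2, and deposited raw counts of read pairs per Ensembl gene ID from FeatureCounts. The annotation release, the strand setting and the handling of shared reads are not given in the sources used here, so overlapping genes are uncertain. A deposited table of values normalized by the authors was not used.

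Groups and library numbers came from the titles, and each library is 1 camel. Symbols came from supplementary tables, 1 of them held only in part. Counts were compared with edgeR 4.0.16 (R 4.3.3): filterByExpr by group, TMM, robust quasi-likelihood F test, Benjamini-Hochberg adjustment over 14432 genes, threshold 0.05. The SE is the log2 fold change divided by the square root of F. The fit was tested on simulated data. Alternatives were DESeq2 1.42.0, DESeq2 size factors, library totals, dropping 5 dominant IDs, other filters, RNA integrity or depth group as a covariate, summed *ESR1* IDs and each library left out. Leaving out CON13 and WD6 together was added after the data were seen.

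Members and lists were chosen with earlier results of these data known. Values in every library are given for receptors past the threshold in any of 3 fits (edgeR, DESeq2, depth group) or without overlap, the 6 of smallest p, both corticosteroid receptors and the highest of each role group. From each list, called genes and the gene of smallest p are named. Others are named as chosen after their values were seen or given by range.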

Additional observations from a re-analysis of the deposited data

Results flagged for a closer look

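In 58 groups of 5 libraries (29 tested receptors, control and WD), the gap of the highest or lowest library to its nearest neighbour was divided by the range of the group, both on the scale of log2(CPM + 0.5). It exceeded Dixon's critical value of 0.71 in 6 groups. Chance alone sets about 1 in 20 groups apart where values are normal and equally precise. The libraries here differ in depth and so in precision, and the share over all genes was not computed. Of these 6, 3 fell on WD6, 2 on CON13 and 1 on WD9.

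*NR3C2* had the largest ratio, 0.912, with WD6 at 5.69 CPM and the other WD libraries at 13.7 to 14.9 CPM. WD6 also stood apart for *NR2E1* (ratio 0.739), at 5.22 CPM from 11 read pairs against 10.4 to 13.3 CPM, and in the other direction for *RARA* (0.734), at 30.8 CPM from 65 read pairs against 13.4 to 16.7 CPM.

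CON13 stood apart for *RXRB* (0.756), at 34.7 CPM from 29 read pairs against 21.5 to 24.1 CPM in the other control libraries. The ratio of 0.725 for *RARB* came from 0 read pairs in CON13, which allow a level of up to 3.59 CPM. That limit lies within the 2.78 to 6.19 CPM of the other control libraries, so a difference of CON13 was not detectable at its depth. For *NR1D2* the deep library WD9 stood apart (0.719), at 42.3 CPM from 490 read pairs against 32.9 to 35.3 CPM.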

How the results depend on the processing

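No receptor was called in the alternatives that gave it an adjusted p. These were 16 to 20 of 20 for 29 IDs, 9 for *HNF4G*, 8 for *PPARG*, 2 each for *NR5A1* and *NR5A2*, and 1 each for *NR1H4*, *NR1I2*, *NR2E3* and the less counted *ESR1* ID. For the 12 receptors named by the rule, the 232 alternative values included 0 past the threshold, with adjusted p of at least 0.434. Of the others given by library, the lowest adjusted p was 0.0942 for *PPARG* (DESeq2), 0.256 for the more counted *ESR1* ID and 0.366 for *HNF4A*. The estimates kept their sign in all alternatives for 8 of the 12. *NR2C2* was at -0.03 without WD15 and just below 0 without CON2, *NR1H2* was just below 0 with RNA integrity as a covariate, *NR3C1* was at 0.04 with library totals only, and *ESRRA* was at -0.02 without CON13 and WD6. Among the partner and target genes, DESeq2's Wald test called 1 gene (*DBP*) and each other alternative 0. Over all genes, 72 were called. DESeq2's Wald test called 209, the fit with depth group 224 and library totals only 10, while fits without 1 library called 40 (without CON3) to 102 (without WD6), with 42 without CON5. The causes were not tested.

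The mean control level of *NR2C2*, the most counted receptor, was 34.5 to 35.8 CPM when each control library was left out, and without CON5 *NR1H2* stood marginally above it. The planned order per coding length was not run, since no lengths were at hand. No paired analysis was possible because the control and WD libraries share no replicate numbers. The 10 receptors whose 95% interval reached beyond a 2-fold change had 113 to 310 read pairs in all.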
